A study of Homo sapiens with 6 samples.

Results

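Peroxiredoxins and the thioredoxin system are the 10 genes PRDX1 to PRDX6, TXN, TXN2, TXNRD1 and TXNRD2, taken by symbol from the log2 expression table, with the brightest transcript cluster (the probes that read one gene) kept per symbol. Of the 10, 9 were measured among 14884 named genes, each by 1 cluster. PRDX5 had no named cluster and was not analysed here. RNA came from RWPE-1, a benign human prostate epithelial cell line immortalised with papillomavirus and grown in KSFM. The cells carried a CD511B-1 lentivirus with a GFP tracer that held either a scrambled control (RWPE1-CTRL) or the genomic miR-183 family cluster (RWPE1-183FC). Both were sorted as polyclonal GFP+ populations, 3 biological replicates each, 1 array per replicate, and no untransduced cells were analysed here.

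Peroxiredoxins reduce hydrogen peroxide and organic peroxides with a reactive cysteine. Most of them are recharged by thioredoxin, which is in turn reduced by thioredoxin reductase, a selenoprotein that uses NADPH. The system protects thiols from oxidation and also sets how long a peroxide signal lasts. The genes cover several compartments, with PRDX1, PRDX2, PRDX6, TXN and TXNRD1 mainly in the cytosol, PRDX3, TXN2 and TXNRD2 in mitochondria and PRDX4 in the endoplasmic reticulum.

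The mature miRs of the overexpressed cluster are shown because they define RWPE1-183FC, each 5′ to 3′ with the seed (bases 2 to 8) in capitals. They were matched by name in RefSeq (GRCh38.p14, minus strand), at chr7:129774967-129774988, chr7:129774739-129774761 and chr7:129770447-129770470.
hsa-miR-183-5p: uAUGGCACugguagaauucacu
hsa-miR-96-5p: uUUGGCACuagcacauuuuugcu
hsa-miR-182-5p: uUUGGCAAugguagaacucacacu
The 3 seeds were all distinct and shared the run UGGCA of 5 bases.

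The features of the overexpressed transcript were examined first. The MIR96 feature was at 2.46, 2.67 and 1.92 in RWPE1-CTRL and at 5.19, 5.54 and 5.93 in RWPE1-183FC (log2), and MIR183 likewise did not overlap between groups. Over all 53617 clusters the limma adjusted p was 0.0904 for MIR96, 0.208 for MIR183 and 0.9999 for MIR182, whose arrays overlapped. Over the 14884 named genes, the fit used for the genes below, it was 0.00175 for MIR96 and 0.0348 for MIR183. The 6 arrays correlated at 0.974 to 0.988 with one another over genes. Deviations from the group means correlated most between the replicate 2 arrays of both groups (0.511). A deviation shared by both arrays cancels in the difference of the group means, so values without these arrays are given only as a description. Of the marker genes, KRT5, KRT14, KRT8, KRT18 and EPCAM lay above the median of every array. The basal keratin KRT15 lay above it on 3 of 6, those of RWPE1-183FC. The measured luminal (KLK2, KLK3), stromal (DCN, LUM), leukocyte (CD14) and endothelial (PECAM1, VWF) markers were not above it on all arrays.

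No gene of the peroxiredoxin and thioredoxin system passed the test between RWPE1-183FC and RWPE1-CTRL. The test was limma with an FDR under 0.2 and a fold change over 1.5. Over all 14884 named genes 0 of 9 were called, where 0.242% of all genes were called, and 0 of 9 had an unadjusted limma p under 0.05, against 4.78% of all genes. Their adjusted p were all 0.9998. After the filter on median and variance of the study's methods, 6 of the 9 could be tested and 0 were called, against 0.939% of the genes that passed (90 genes, or 162 with the replicate number as a block). PRDX4, PRDX6 and TXN were removed by this filter for low variance. In 0 of 9 did the groups separate completely, against 9.73% of all named genes. By mean, 5 were higher and 4 lower in RWPE1-183FC, with a median log2 fold change of 0.038 over the 9 and 0.0090 over all named genes.

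**Figure D1:**
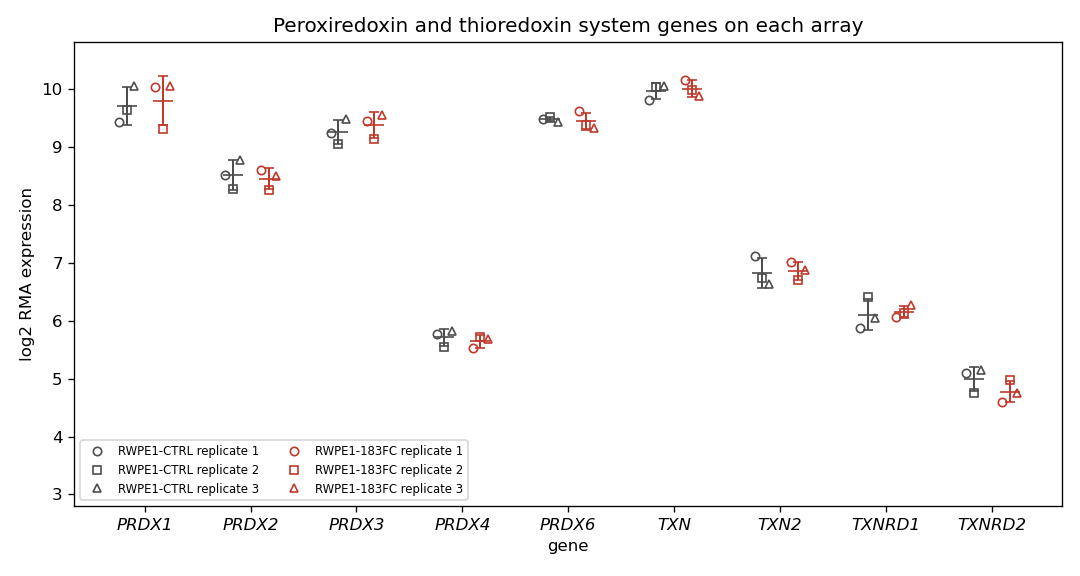
Log2 RMA expression (vertical axis) of the 9 measured genes (horizontal axis) on each array, with the symbol giving the replicate number, grey for RWPE1-CTRL and red for RWPE1-183FC; bars are the mean and SD of 3 arrays. In every gene the groups overlap, and levels of different genes read by different probes are not comparable.

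Among the peroxiredoxins of the cytosol, PRDX1 varied most. It was at 9.42, 9.63 and 10.05 in RWPE1-CTRL replicates 1 to 3 and at 10.03, 9.30 and 10.05 in RWPE1-183FC. The lowest array of all 6 was RWPE1-183FC replicate 2, and the highest values of both groups were equal to 2 decimals. The log2 fold change was 0.09 (standard error 0.24, 95% interval -0.43 to 0.62). The upper end of this interval, a 1.54-fold higher level, was the highest of the 9 genes. Without both replicate 2 arrays the log2 fold change was 0.31. In bulk RNA a change per cell and a change in the share of cells that express a gene cannot be told apart.

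PRDX2, abundant in red blood cells, was at 8.51, 8.26 and 8.78 in RWPE1-CTRL and at 8.59, 8.25 and 8.50 in RWPE1-183FC. Replicate 2 was the lowest array of each group. Its log2 fold change was -0.07 (95% interval -0.46 to 0.32). PRDX6 acts with glutathione rather than thioredoxin and also has phospholipase activity. It was at 9.48, 9.51 and 9.42 in RWPE1-CTRL and at 9.61, 9.38 and 9.32 in RWPE1-183FC. The RWPE1-CTRL arrays were the tighter group, with an SD of 0.044 against 0.154, and lay within the range of RWPE1-183FC. The log2 fold change of PRDX6 was -0.04 (95% interval -0.36 to 0.29).

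In mitochondria, PRDX3 was at 9.24, 9.05 and 9.48 in RWPE1-CTRL and at 9.45, 9.13 and 9.55 in RWPE1-183FC. Each RWPE1-183FC array was above the RWPE1-CTRL array of the same replicate number, by 0.21, 0.07 and 0.08. How often this held over all named genes was not determined, and the pairing by number was taken from the data alone. The log2 fold change of PRDX3 was 0.12 (standard error 0.17), and the limma adjusted p was 0.871 in a fit blocked on the replicate number. Both replicate 2 arrays lay below the other 4 for PRDX2 and for PRDX3, and this was so for 13.1% of all named genes. PRDX4, the peroxiredoxin of the endoplasmic reticulum, passes oxidising equivalents to disulfide isomerases. It was at 5.76, 5.54 and 5.82 in RWPE1-CTRL and at 5.52, 5.72 and 5.69 in RWPE1-183FC. The arrays of the groups were interleaved, and the log2 fold change was -0.07 (95% interval -0.40 to 0.26).

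**Figure D2:**
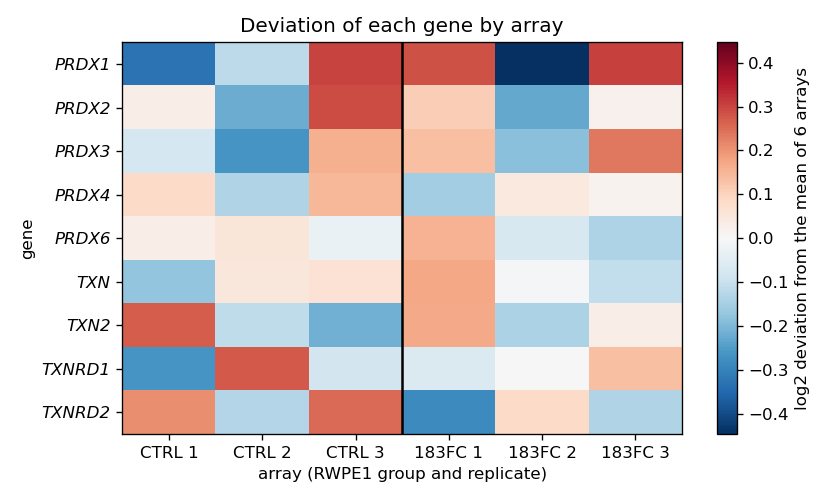
Deviation of each gene (rows) from its own mean of 6 arrays on the log2 scale (colour) for each array (columns, RWPE1-CTRL left and RWPE1-183FC right). PRDX2 and PRDX3 are lowest in replicate 2 of both groups, and PRDX1 in RWPE1-183FC replicate 2.

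Of the thioredoxins, TXN, the cytosolic donor of electrons to peroxiredoxins and ribonucleotide reductase, was at 9.81, 10.03 and 10.05 in RWPE1-CTRL and at 10.15, 9.97 and 9.87 in RWPE1-183FC. The highest and the second lowest array were both in RWPE1-183FC. TXN thus had a log2 fold change of 0.04 (95% interval -0.30 to 0.37). TXN2, the mitochondrial thioredoxin, was at 7.11, 6.73 and 6.63 in RWPE1-CTRL and at 7.01, 6.70 and 6.87 in RWPE1-183FC. The RWPE1-183FC arrays all fell inside the range of RWPE1-CTRL, and the log2 fold change was 0.04 (95% interval -0.35 to 0.42).

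TXNRD1, the cytosolic reductase, was at 5.86, 6.40 and 6.04 in RWPE1-CTRL and at 6.06, 6.13 and 6.26 in RWPE1-183FC. The RWPE1-183FC arrays lay inside the range of RWPE1-CTRL, where replicate 2 was highest. TXNRD1 had a log2 fold change of 0.05 (95% interval -0.33 to 0.43), and 0.21 without both replicate 2 arrays (limma adjusted p = 0.966). TXNRD1 is a known target of NRF2, the transcription factor of the oxidant response, which binds antioxidant response elements. The core TGACNNNGC (N any base) was searched on both strands in the RefSeq windows of 300 bases around annotated starts (250 before, 50 after). Of the 10 genes 7 had such a window, 11 windows in all, and PRDX1, PRDX6 and TXN2 had no entry. The core was found in both windows of TXNRD1 and in no window of the other 6 genes. By gene this was 1 of 7, against 16.1% of all genes with a window. By window it was 2 of 11, against 13.3% of all 35116 windows. The matches are shown with 9 bases on either side and the core in capitals, read on the strand that holds it (GRCh38.p14).
TXNRD1 start 1, chr12:104215671-104215697, plus strand: cacgggctaTGACTTCGCtgttgtcac
TXNRD1 start 1, chr12:104215762-104215788, minus strand: tgtgggaacTGACGGAGCcgaaggacg
TXNRD1 start 2, chr12:104286921-104286947, minus strand: gagtcagaaTGACAAAGCagaaatcca
The array measured 1 cluster for TXNRD1, so its starts were not measured apart.

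TXNRD2, the mitochondrial reductase, had the largest difference of the 9. It was at 5.10, 4.76 and 5.14 in RWPE1-CTRL and at 4.60, 4.97 and 4.75 in RWPE1-183FC. In both groups replicate 2 was out of order, the lowest of RWPE1-CTRL and the highest of RWPE1-183FC. The log2 fold change was -0.22 (standard error 0.17, 95% interval -0.59 to 0.15, unadjusted limma p = 0.214, exact permutation p = 0.2, where 0.1 is the smallest that 3 arrays against 3 allow). A difference of at least this size was seen in 22.3% of all named genes. Without both replicate 2 arrays the log2 fold change was -0.44 (limma adjusted p = 0.829). The remaining arrays of PRDX4, TXNRD1 and TXNRD2 then separated completely, 3 of the 9 genes, and so did those of 33.3% of all named genes. The cluster lay near the median of the arrays of named genes, above it on 2 of 6.

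**Figure D3:**
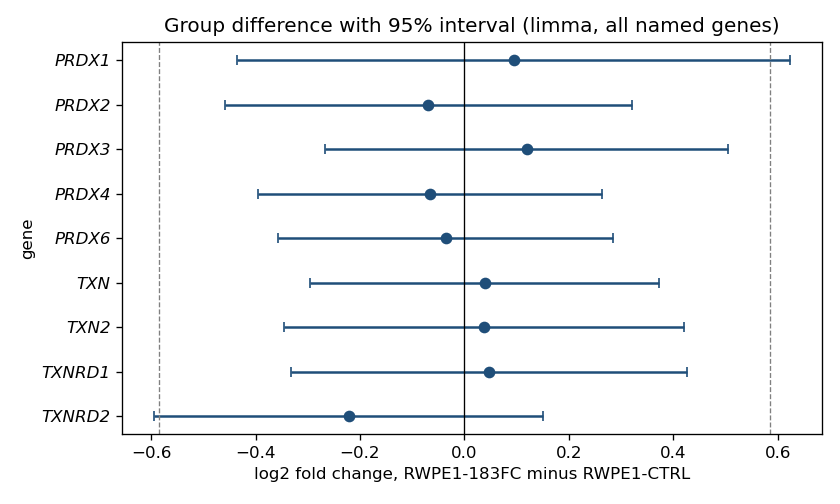
Log2 fold change of RWPE1-183FC over RWPE1-CTRL (horizontal axis) with its 95% limma interval for each of the 9 genes; dashed lines mark a 1.5-fold change in either direction. All intervals include 0, and only those of PRDX1 and TXNRD2 reach past a dashed line.

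The intervals give the sizes that these arrays leave possible. For 7 of the 9 genes the 95% interval lay within a 1.5-fold change in either direction, which held for 66.7% of all named genes. The exceptions were PRDX1, up to 1.54-fold higher, and TXNRD2, down to 0.66-fold. The intervals are for single genes and are not adjusted for their number. With 3 arrays per group, differences of 1.5-fold as well as smaller ones can be missed by the test. Over all named genes MAP3K5, described below, was 1.68-fold higher and had a limma adjusted p of 0.409. The standard errors ran from 0.14 to 0.24, with a median of 0.170 against 0.169 over all named genes.

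Other genes of the pathway were taken from 10 lists of thioredoxin relatives, regulators, dependent enzymes and sources of reducing power. Apart from the 9 genes, 89 of 136 listed genes were measured, and 64 passed the filter. Of these 1 was called, MAP3K5, higher in RWPE1-183FC, and none was called lower, against 0.501% and 0.438% of all genes that passed the filter. MAP3K5 encodes ASK1, a stress kinase that reduced thioredoxin binds and holds inactive. It was at 5.45, 5.21 and 5.77 in RWPE1-CTRL and at 6.19, 6.09 and 6.38 in RWPE1-183FC. All RWPE1-183FC arrays were above all RWPE1-CTRL arrays. The log2 fold change was 0.74 (standard error 0.22, limma adjusted p = 0.116, and 0.0189 in a fit blocked on the replicate number). The filtered test made more false calls on simulated data than its FDR allows. Without the filter MAP3K5 was not called (adjusted p = 0.409 from limma). Dropping 1 array from the filtered fit had mixed results. The limma adjusted p of MAP3K5 was 0.708 and 0.682 with RWPE1-CTRL replicates 1 and 2 dropped in turn. It was 0.638 and 0.946 for RWPE1-183FC replicates 1 and 3, so that MAP3K5 was not called in these cases. The call was kept when the dropped array was the third of RWPE1-CTRL (limma adjusted p = 0.0945). It was also kept when the second of RWPE1-183FC was dropped (0.0986).

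**Figure D4:**
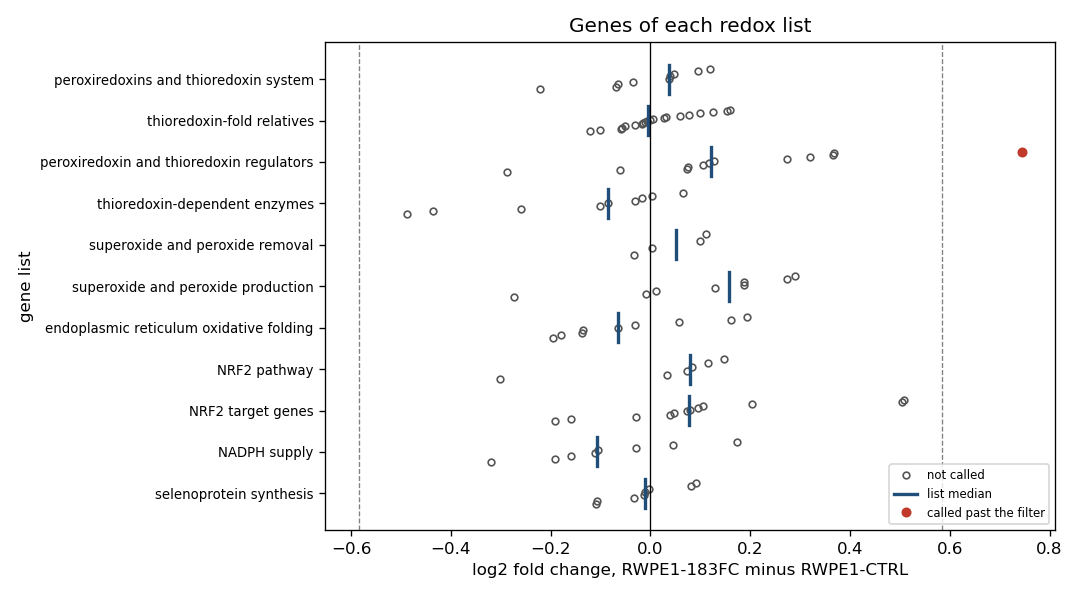
Log2 fold change of RWPE1-183FC over RWPE1-CTRL (horizontal axis) for every measured gene of each list (rows); blue bars are list medians, dashed lines a 1.5-fold change, and the filled red point is the gene called past the filter, MAP3K5. List medians run from -0.11 to 0.16.

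MAP3K5 was on the list of regulators of peroxiredoxins and thioredoxin. Of its 12 genes all were measured, 11 passed the filter, 10 had higher and 2 lower means in RWPE1-183FC, and the median log2 fold change was 0.12. Over all 14884 named genes 7740 had higher and 7144 lower means, and the direction counts of the lists were not tested. TXNIP, which binds thioredoxin and blocks it, is described here because of its spread, chosen after its values were seen. It was at 9.88, 10.22 and 6.88 in RWPE1-CTRL and at 8.99, 10.06 and 8.75 in RWPE1-183FC. Relative to the mean of the other arrays, RWPE1-CTRL replicate 3 was at -2.70 on the log2 scale. The SD of TXNIP over the 6 arrays, 1.25, was the 8th largest of the 14884 named genes, and its log2 fold change was 0.27 with a standard error of 0.74. The arrestin-domain genes ARRDC3 and ARRDC4, relatives of TXNIP, and SESN2, a stress-induced sestrin, were also lowest in RWPE1-CTRL replicate 3, as was GSTP1, a glutathione transferase. These were 5 of the 12 regulators with TXNIP, against 18.9% of all named genes, and the other regulators, SESN3 and SRXN1 among them, were not lowest there. ARRDC4 was at 8.80, 8.59 and 6.90 in RWPE1-CTRL and at 8.12, 8.17 and 8.23 in RWPE1-183FC. SESN2 was at 8.13, 8.19 and 6.66 in RWPE1-CTRL, against 7.79, 8.15 and 8.13 in RWPE1-183FC. Left-out arrays moved the calls of this group in the filtered fit. TXNIP was called higher without RWPE1-CTRL replicate 2 (log2 fold change 0.89), although its remaining arrays overlapped between groups. Over all 6 arrays the standard error of TXNIP was 0.28 in the filtered fit, against 0.74 over all named genes. ARRDC3 was called lower without RWPE1-CTRL replicate 3 (-0.82). SRXN1, the sulfiredoxin that repairs overoxidised peroxiredoxins, had a log2 fold change of 0.11.

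**Figure D5:**
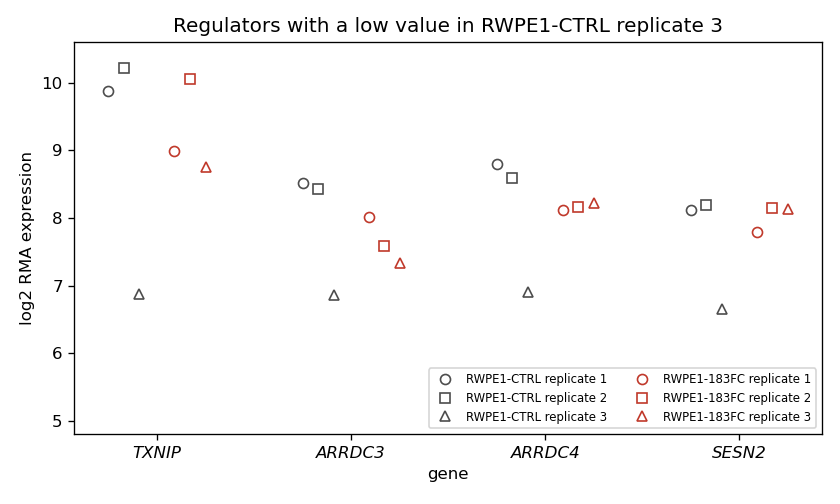
Log2 RMA expression (vertical axis) of TXNIP, ARRDC3, ARRDC4 and SESN2 on each array, grey for RWPE1-CTRL and red for RWPE1-183FC, with the symbol giving the replicate number. RWPE1-CTRL replicate 3, the grey triangle, is the lowest array in each, at 6.88 in TXNIP.

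No gene of the remaining 9 lists was called. Among the 9 measured thioredoxin-dependent enzymes, 7 had lower means. MSRA, a methionine sulfoxide reductase that draws on thioredoxin, was at 4.57, 4.85 and 4.88 in RWPE1-CTRL and at 4.34, 4.38 and 4.12 in RWPE1-183FC. MSRA was dim, with values under the median of every array. Its arrays did not overlap, but at a log2 fold change of -0.49 it was not called. Its limma adjusted p was 0.843 in the filtered fit and 0.814 over all named genes. MSRB2, its mitochondrial counterpart for the other isomer, was at -0.44 with overlapping arrays. Of 20 thioredoxin-fold relatives only 8 passed the filter, and the log2 fold changes of all 20 ran from -0.12 (GLRX3) to 0.16 (TXNDC16). GLRX, a glutaredoxin, was at 0.15 and its arrays did not overlap, but its values too lay under the median of every array.

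Of 28 listed NRF2 target genes 12 were measured, among them PRDX1, TXN and TXNRD1. In 9 the mean was higher in RWPE1-183FC and in 3 lower, with a median of 0.08. GSR, the glutathione reductase that serves the parallel glutathione system, was at 8.41, 8.14 and 8.31 in RWPE1-CTRL and at 8.86, 8.77 and 8.76 in RWPE1-183FC. Its arrays did not overlap, but the log2 fold change of 0.51 did not pass. The limma adjusted p of GSR was 0.783 in the filtered fit and 0.628 over all named genes. BLVRB, a biliverdin reductase, was at 0.50 with overlapping arrays. All 6 measured genes of the NRF2 pathway itself passed the filter, with log2 fold changes from -0.30 (MAFF) to 0.15 (SQSTM1).

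The 8 measured genes of NADPH supply had a median log2 fold change of -0.11, with PGLS of the pentose phosphate pathway lowest at -0.32, and its arrays did not overlap. TALDO1, the transaldolase of that pathway, was at -0.19. Of 12 listed genes of selenoprotein synthesis, on which the reductases depend, 8 were measured. They ran from -0.11 (SEPHS1, and SECISBP2L to 2 decimals) to 0.09 (TRNAU1AP). Of the 9 measured genes of oxidative folding in the endoplasmic reticulum the extremes were TMX3 at -0.19 and QSOX2 at 0.19. The 4 measured genes of superoxide and peroxide removal ran from -0.03 (PARK7) to 0.11 (PXDN), with catalase (CAT) at 0.10. The 8 measured oxidase genes included 2 past the filter, and the dim NOX3, NOX1 and DUOXA2 were at 0.29, 0.27 and -0.27, with arrays that did not overlap for NOX3 and DUOXA2. Over all 89 genes outside the 9, arrays did not overlap in 9, or 10.1%, against 9.73% of all named genes.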

How the data were processed

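Gene expression of RWPE1-CTRL and RWPE1-183FC cells was measured on Affymetrix Human Gene ST arrays, 3 per group. The authors deposited log2 values after RMA (background correction, quantile normalization and summary per transcript cluster), made with the R package oligo per the paper, while Partek appears beside RMA among the tools in the submitters' notes. The number of arrays limits the precision, and the raw arrays were not used here. RMA values compress changes of dim clusters.

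Of 53617 clusters 16098 carried 1 gene symbol in the platform annotation, 0 several and 37519 none. The brightest cluster per symbol left 14884 genes. For the filtered test 9583 genes were kept, at or over percentile 20 in both median and variance, and limma 3.58.1 (lmFit, eBayes; R 4.3.3) was used to compare the groups (Benjamini-Hochberg FDR under 0.2, absolute fold change over 1.5). Since the filter on variance removes stable genes, fold changes, standard errors and 95% intervals were taken from a fit over all named genes, except for MAP3K5, whose standard error is from the filtered fit. Filtering raised limma's prior degrees of freedom from 5.8 to 175.8. On simulated data the test over all named genes made a share of false calls near its FDR, and the filtered test a larger share in each simulation, so the filtered calls are given as those of the study's procedure. Figures were drawn with matplotlib 3.10.9.

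The genes and lists were chosen with earlier results of these data known, and the lists were written from general knowledge. Named were the 9 genes, for each list its called genes or else the 2 with the largest change, and the 3 genes most like the most variable of the 9. Other genes named were extremes of a list or are said to be chosen after their values were seen; SRXN1, ARRDC3, ARRDC4, SESN2 and GSTP1 belong to the latter. Deviations from the group means correlated at 0.101, 0.511 and 0.29 between arrays of replicate numbers 1, 2 and 3, against at most 0.214 between different numbers across groups, so that replicate 1 did not stand out. By a limit of 0.1 on each, which replicate 1 barely met, the numbers were treated as possible pairs, from the data alone. The main tests used no pairing, and only the replicate block and the differences by replicate number did. The sources used here state no shared day or batch. Alternatives covered filter, replicate block, array weights, normalization, clusters per gene, variance prior, thresholds and left-out arrays.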

Additional observations from a re-analysis of the deposited data

How the results depend on the processing

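None of the 9 genes was called under any alternative run, in the filtered fit or over all named genes, and over 126 fold changes in 14 settings the lowest limma adjusted p was 0.79 (TXNRD2, replicate block). Without 1 array, log2 fold changes ran from -0.046 to 0.34 for PRDX1, -0.20 to 0.060 for PRDX2, -0.12 to 0.024 for PRDX6, -0.039 to 0.10 for TXN, -0.06 to 0.18 for TXN2 and -0.073 to 0.20 for TXNRD1, turning sign in each. Without both replicate 2 arrays, PRDX6 was at 0.010, PRDX2 at -0.098, PRDX3 at 0.14 and PRDX4 at -0.19. TXN was then at 0.087 and TXN2 at 0.070. PRDX3, PRDX4 and TXNRD2 kept their sign in all 14 settings. The replicate block, the variance prior and the settings on clusters per gene could not change these fold changes. Groups separated completely in 0 to 3 of the 9 genes without 1 array (3 without RWPE1-CTRL replicate 2, where 19.6% of all named genes did), and in 3 without both replicate 2 arrays (33.3%). With other single arrays left out, 18.0% to 21.6% of all named genes separated. The 90 calls over all genes became 36 unfiltered, 37 when only the median was filtered, 162 with the replicate block, 192 with array weights, 51 at an FDR under 0.05, and 43 to 152 without 1 array (58 when RWPE1-CTRL replicate 1 was left out; 43, 152 and 57 for RWPE1-183FC replicates 1, 2 and 3). The 1 call outside the 9 genes, MAP3K5, became 0 with no filter, with the median filter and over all clusters. It also became 0 at an FDR under 0.05 and without both replicate 2 arrays. There were 2 such calls with array weights (MAP3K5 and MSRB2), and 0 to 2 without 1 array. The MIR96 feature passed an FDR of 0.2 over all clusters with 1 array left out only without RWPE1-CTRL replicate 2. The causes were not tested.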

Other observations

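PRDX1 was the most variable of the 9 genes, with an SD of 0.34 over the 6 arrays and 87.5% of named genes below it in variance. The 3 genes whose values followed it most closely were EID2, PDZD4 and the non-coding LINC01139, with a Pearson's r of 0.978, 0.973 and 0.973 over the 6 arrays, as a description with no test. They were taken from 7441 variable genes, of which 11 had an r over 0.95. EID2 was at 4.99, 5.02 and 5.44 in RWPE1-CTRL and at 5.34, 4.89 and 5.40 in RWPE1-183FC, and like PRDX1 it was lowest in RWPE1-183FC replicate 2. PDZD4 and LINC01139 were dim, with values under the median of every array.

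The least variable of the 9 was PRDX6, with 7.38% of named genes below it in variance. Between arrays of the same replicate number TXNRD2 differed by -0.49, 0.21 and -0.39 and PRDX1 by 0.61, -0.33 and 0.00 on the log2 scale (RWPE1-183FC minus RWPE1-CTRL), so that replicate 2 went against replicate 1 in both genes.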
